A study of Mus musculus with 11 samples.

Results

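The genes described are Ccr4, Ccr6, Ccr8, Ccr9 and Ccr10, which encode 5 chemokine receptors known for guiding T cells into skin, gut and other mucosal tissue. They were chosen by name, as the probe sets of a glycan gene chip whose identifier carries a RefSeq transcript of the gene, and where a gene had more than 1 probe set the one with the highest mean over all arrays was taken. All 5 were found, among 908 genes that could be named on the chip. Only Ccr9 had another probe set, which is given beside the brighter one. The probe set of Ccr6 has the suffix s and the brighter probe set of Ccr9 the suffix x, which mark signal that may be shared with other transcripts.

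Each of 11 arrays held a sorted CD4+ T cell sample from the spleens of female C57BL/6 mice, in 3 populations. Treg cells were CD4+CD25+(CD45RBlow) (n = 3, replicates 1, 2 and 4). The others were CD4+CD25-CD45RBlow cells, labelled activated/memory and called CD45RBlow here (n = 4), and CD4+CD25-CD45RBhigh cells, labelled naïve and called CD45RBhigh here (n = 4). The CD25- samples came from naïve mice of 4 to 6 weeks, and the labels used here give no age for the Treg samples, so age and population cannot be told apart in comparisons with Treg cells. No treatment, transgene or deletion is named for any sample. CD25 is part of the high-affinity receptor for interleukin-2, and CD45RB marks naive CD4+ cells by its high level. Nothing says that replicates came from separate animals, so p-values cover no more than the spread among these samples, which may be technical. Values are log2 expression from Robust Multichip Average (RMA), a difference of 1 is a change by a factor of 2, and precision is limited by how few arrays there are.

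Chemokine receptors are G protein-coupled receptors of the cell surface that make leukocytes move toward cells that release the matching chemokine. Ccr4 binds Ccl17 and Ccl22 and Ccr8 binds Ccl1 and, in the mouse, Ccl8, and both are known from T cells that enter skin and from regulatory T cells. Ccr6 binds Ccl20, made by epithelium over mucosal lymphoid tissue, and is known from T cells that make interleukin-17. Ccr9 binds Ccl25 of the small intestine and thymus, and Ccr10 binds Ccl27 of the skin and Ccl28 of mucosal epithelium.

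Array medians lay between 4.85 and 4.94. Il2ra, the gene of CD25 and a check of the sort, read 9.69 to 10.02 on Treg arrays, 5.77 to 6.54 on CD45RBlow arrays and 3.85 to 4.45 on CD45RBhigh arrays, with no overlap. Cd44, an adhesion receptor high on memory T cells, rose in Treg (log2 difference 1.44, limma adjusted p = 0.012) and CD45RBlow cells (adjusted p = 0.0083) over CD45RBhigh cells, and the former call was lost without Treg replicate 1 (1.22, adjusted p = 0.0596). Foxp3, Ctla4, Cd4 and Cd3e were not among the named probe sets, so the labels were checked against Il2ra and the marker lists given further on. Within populations, replicates 1 and 2 stood apart from replicates 3 and 4. With population in the model, 257 of 1246 probe sets (20.6%) differed between these replicate sets, and for the 5 receptors, results that change within a set are given both ways. For other genes given with a call, a loss in replicates 3 and 4 alone, which hold 1 Treg array, is stated beside it, while counts over lists are from all arrays. In sorted bulk samples, a larger share of cells that express a gene and more RNA per cell cannot be told apart.

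All 5 receptors were lowest in CD45RBhigh cells, and they parted in where they were highest. Ccr4, Ccr6 and Ccr8 had their highest mean in Treg cells, and Ccr9 and Ccr10 in CD45RBlow cells. Against CD45RBhigh cells, all 5 rose in Treg cells and all 5 rose in CD45RBlow cells (limma with Benjamini-Hochberg adjustment over 1246 probe sets, adjusted p under 0.05). Of all probe sets 10.3% rose and 8.59% fell in the first comparison, and 7.62% rose and 4.98% fell in the second. With the replicate number as a block, all 5 rose again in both, against 26.5% and 21.7% of all probe sets called in either direction. Between Treg and CD45RBlow cells, Ccr6 and Ccr8 were higher in Treg cells, Ccr10 was lower, and Ccr4 and Ccr9 did not pass. In that comparison 6.74% of all probe sets were called higher and 5.78% lower. The median difference of the 5 genes was 2.59 for Treg against CD45RBhigh cells, 1.99 for CD45RBlow against CD45RBhigh cells and 0.68 for Treg against CD45RBlow cells. Over all probe sets the medians were -0.04, -0.08 and 0.04.

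**Figure D1:**
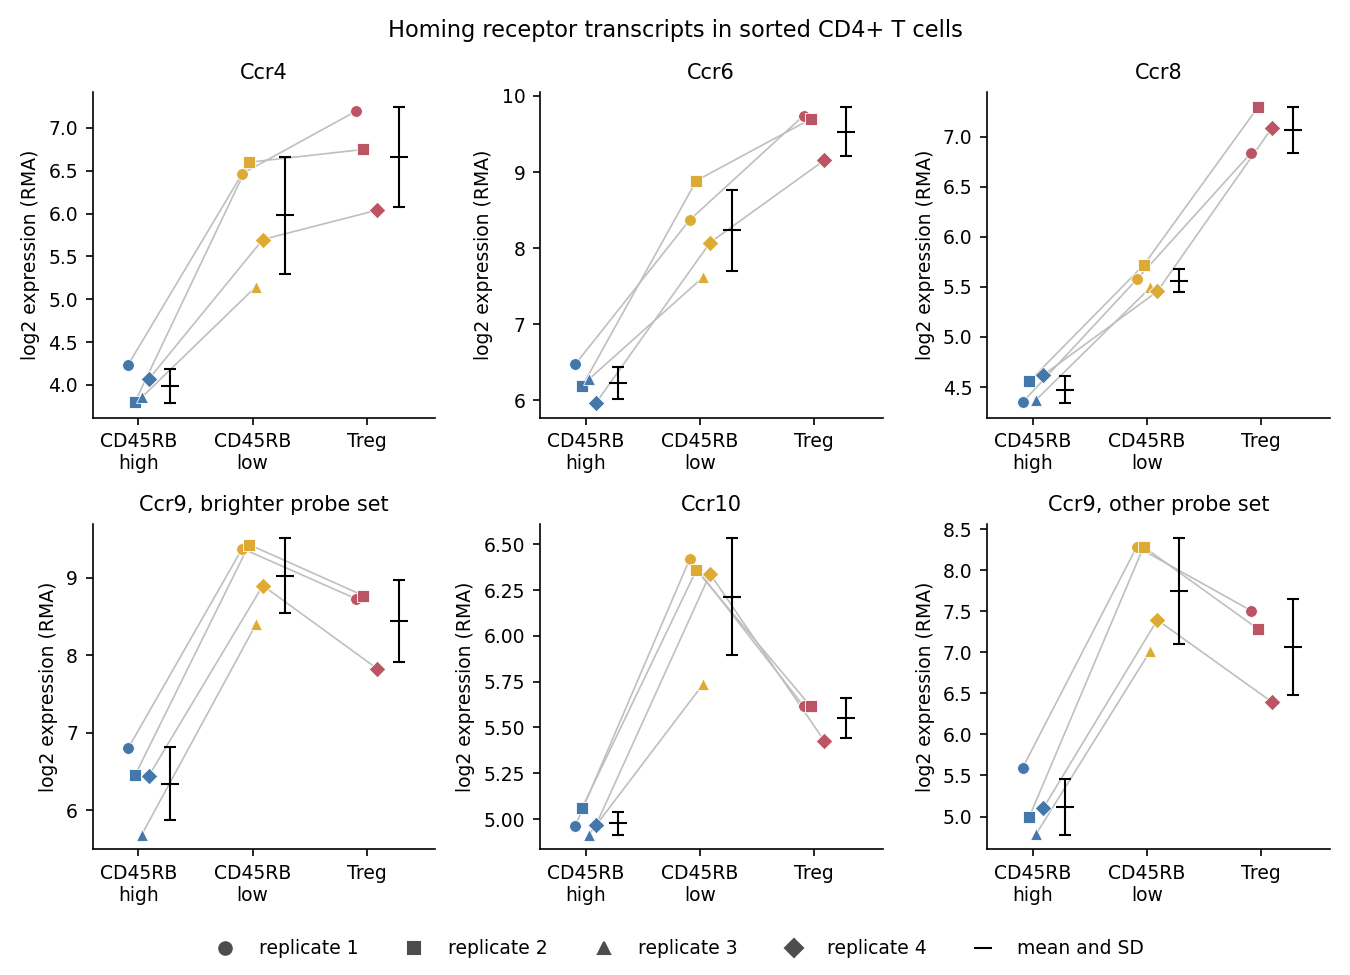
Level of each homing receptor on each array (y axis, log2 RMA expression, with its own range in each panel and not starting at 0) in the 3 populations (x axis); symbols are replicate numbers, grey lines join arrays of the same number, and the bar beside each group is its mean and SD. Ccr4, Ccr6 and Ccr8 have their highest mean in Treg cells, Ccr9 by both probe sets and Ccr10 in CD45RBlow cells, and no CD45RBhigh array reaches an array of another population.

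Ccr8 fell into 3 levels, 1 for each population, and had the smallest adjusted p of the 5 genes in all 3 comparisons. Treg replicates 1, 2 and 4 read 6.84, 7.29 and 7.08 (mean 7.07 ± 0.23, SD, n = 3). CD45RBlow replicates 1 to 4 read 5.57, 5.72, 5.49 and 5.45 (5.56 ± 0.12, SD, n = 4), and CD45RBhigh replicates 1 to 4 read 4.35, 4.56, 4.37 and 4.62 (4.48 ± 0.13, SD, n = 4). No array of a population reached an array of another. Ccr8 was 6.04-fold higher in Treg than in CD45RBhigh cells, a log2 difference of 2.59 (95% interval 2.35 to 2.84, limma adjusted p = 4.45e-08). The step from CD45RBhigh to CD45RBlow cells was 1.08 (0.85 to 1.31, 2.12-fold, adjusted p = 2.75e-05), and that from CD45RBlow to Treg cells 1.51 (1.26 to 1.76, 2.85-fold, adjusted p = 4.07e-06). The rise from CD45RBhigh to CD45RBlow cells was thus 41.8% of the rise to Treg cells on the log2 scale. Ccr8 also showed the least difference between replicate sets, 0.04 for replicates 1 and 2 over 3 and 4 (-0.15 to 0.24, adjusted p = 0.794). Within each replicate number, CD45RBlow exceeded CD45RBhigh cells by 0.84 to 1.23, and Treg exceeded CD45RBlow cells by 1.26 to 1.63.

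Ccr6 showed the same order of populations with a larger overall range, 3.78 on the log2 scale. Its Treg arrays read 9.74, 9.70 and 9.15 for replicates 1, 2 and 4 (9.53 ± 0.33, SD, n = 3). CD45RBlow replicates 1 to 4 read 8.37, 8.89, 7.62 and 8.07 (8.24 ± 0.53, SD, n = 4), and CD45RBhigh replicates 1 to 4 read 6.47, 6.18, 6.28 and 5.96 (6.22 ± 0.21, SD, n = 4). No arrays of different populations overlapped, although the highest CD45RBlow array came within a log2 unit of every Treg array. Ccr6 was 9.91-fold higher in Treg than in CD45RBhigh cells (log2 difference 3.31, 2.74 to 3.88, limma adjusted p = 2.71e-06). It was 4.04-fold higher in CD45RBlow than in CD45RBhigh cells (2.01, 1.49 to 2.54, adjusted p = 0.00015), and 2.45-fold higher in Treg than in CD45RBlow cells (1.30, 0.73 to 1.86, adjusted p = 0.00598). The last call ended in the arrays of replicates 3 and 4 alone, with 1 Treg array, where the difference was 1.31 (adjusted p = 0.0743). In all 3 replicate numbers that hold a Treg array, Ccr6 was higher there than in CD45RBlow cells, by 1.38, 0.81 and 1.08.

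Ccr4 was high in both populations with low CD45RB. Treg replicates 1, 2 and 4 read 7.20, 6.75 and 6.04 (6.66 ± 0.58, SD, n = 3). CD45RBlow replicates 1 to 4 read 6.47, 6.60, 5.15 and 5.70 (5.98 ± 0.68, SD, n = 4), and CD45RBhigh replicates 1 to 4 read 4.23, 3.80, 3.86 and 4.07 (3.99 ± 0.20, SD, n = 4). Every CD45RBhigh array lay below every other array, while Treg replicate 4 lay below CD45RBlow replicates 1 and 2. The gene was 6.38-fold higher in Treg than in CD45RBhigh cells (log2 difference 2.67, 1.91 to 3.44, limma adjusted p = 0.000176) and 3.97-fold higher in CD45RBlow than in CD45RBhigh cells (1.99, 1.28 to 2.69, adjusted p = 0.00134). Between Treg and CD45RBlow cells the difference was 0.68, with an interval of -0.08 to 1.45 that holds both 0 and a change of more than a log2 unit (adjusted p = 0.281). Within replicates 1, 2 and 4 it was 0.73, 0.15 and 0.34. Leaving out CD45RBlow replicate 3 or Treg replicate 1 lowered it to 0.41 or 0.42, and leaving out Treg replicate 4 raised it to 1.00 (adjusted p = 0.494, 0.595 and 0.12). The interval does not show that these populations are alike.

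Ccr9 was highest in CD45RBlow cells. Its brighter probe set read 9.37, 9.42, 8.40 and 8.90 on CD45RBlow arrays 1 to 4 (9.02 ± 0.48, SD, n = 4). Treg replicates 1, 2 and 4 read 8.72, 8.77 and 7.83 (8.44 ± 0.53, SD, n = 3), and CD45RBhigh replicates 1 to 4 read 6.80, 6.45, 5.69 and 6.44 (6.34 ± 0.47, SD, n = 4). Treg and CD45RBlow arrays overlapped, and all of them lay above the CD45RBhigh arrays. Ccr9 was 6.41-fold higher in CD45RBlow than in CD45RBhigh cells (log2 difference 2.68, 2.02 to 3.34, limma adjusted p = 9.77e-05), the 6th largest rise of all 1246 probe sets. In Treg cells it was 4.28-fold higher than in CD45RBhigh cells (2.10, 1.38 to 2.81, adjusted p = 0.000678). That call ended in the arrays of replicates 3 and 4 alone (1.76, adjusted p = 0.0816).

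Between Treg and CD45RBlow cells, Ccr9 differed by -0.58 (-1.30 to 0.13, adjusted p = 0.332), and this is the call that the replicate number changed. Arrays of a shared number deviated alike from the population means, but so did arrays of other numbers in the same replicate set. Correlations of these deviations ran from 0.31 to 0.56 for the same number (median 0.46). For other numbers within a replicate set they ran from 0.20 to 0.58. Sample titles also share an ending across populations within each number, and what it marks is not stated. The ranges overlapped, and pairing by number was not tested apart from the replicate set. With the replicate number as a block the difference was -0.80 (-1.09 to -0.50, limma adjusted p = 0.0014). Within replicates 1, 2 and 4 it was -0.65, -0.66 and -1.07, lower in Treg cells each time. With the replicate set as a term it was -0.70 (adjusted p = 0.0125), and in replicates 1 and 2 alone -0.65 (adjusted p = 0.0116). It did not pass with the number as a random block (-0.66, adjusted p = 0.127), nor in replicates 3 and 4 alone (-0.82, adjusted p = 0.364). Without a block, leaving out 1 array gave -0.79 to -0.28, the latter without Treg replicate 4 (adjusted p = 0.724). The other probe set of Ccr9 read 6.40 to 7.51 in Treg, 7.02 to 8.29 in CD45RBlow and 4.79 to 5.59 in CD45RBhigh cells. Its differences were 1.95 for Treg over CD45RBhigh cells (adjusted p = 0.0022), 2.63 for CD45RBlow over CD45RBhigh cells (adjusted p = 0.000214) and -0.68 for Treg against CD45RBlow cells (adjusted p = 0.294). Both probe sets thus gave the same calls without the block, and with it the other probe set also passed between Treg and CD45RBlow cells (-0.86, adjusted p = 0.00495), but not as a random block (-0.74, adjusted p = 0.114). With the block the share of all probe sets called in that comparison rose to 19.7%.

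Ccr10 spanned the narrowest range of the 5 genes, from 4.92 to 6.42 over all arrays. CD45RBlow replicates 1 to 4 read 6.42, 6.36, 5.74 and 6.34 (6.21 ± 0.32, SD, n = 4). Treg replicates 1, 2 and 4 read 5.62, 5.62 and 5.43 (5.55 ± 0.11, SD, n = 3), and CD45RBhigh replicates 1 to 4 read 4.96, 5.06, 4.92 and 4.97 (4.98 ± 0.06, SD, n = 4). The populations did not overlap, though CD45RBlow replicate 3 lay close to the Treg arrays. Treg replicates 1 and 2 have the same deposited value for Ccr10. Equal values of 2 or more arrays of a population occurred at 109 probe sets in Treg, 197 in CD45RBlow and 204 in CD45RBhigh cells. Ccr10 was 2.36-fold higher in CD45RBlow than in CD45RBhigh cells (log2 difference 1.24, 0.95 to 1.53, limma adjusted p = 6.38e-05).

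In Treg cells, Ccr10 was 1.58-fold lower than in CD45RBlow cells (-0.66, -0.97 to -0.35, limma adjusted p = 0.00964) and 1.49-fold higher than in CD45RBhigh cells (0.58, 0.26 to 0.89, adjusted p = 0.0152). The rise over CD45RBhigh cells lost its call without Treg replicate 1 (0.55, adjusted p = 0.0605) or Treg replicate 2 (0.55, adjusted p = 0.0643). In replicates 3 and 4 alone, none of the 3 comparisons passed for Ccr10, with differences of 0.49 (Treg against CD45RBhigh, adjusted p = 0.385), -0.61 (Treg against CD45RBlow, adjusted p = 0.326) and 1.10 (CD45RBlow against CD45RBhigh, adjusted p = 0.08). Within replicates 1, 2 and 4 Ccr10 was lower in Treg than in CD45RBlow cells by differences of -0.80, -0.74 and -0.91.

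**Figure D2:**
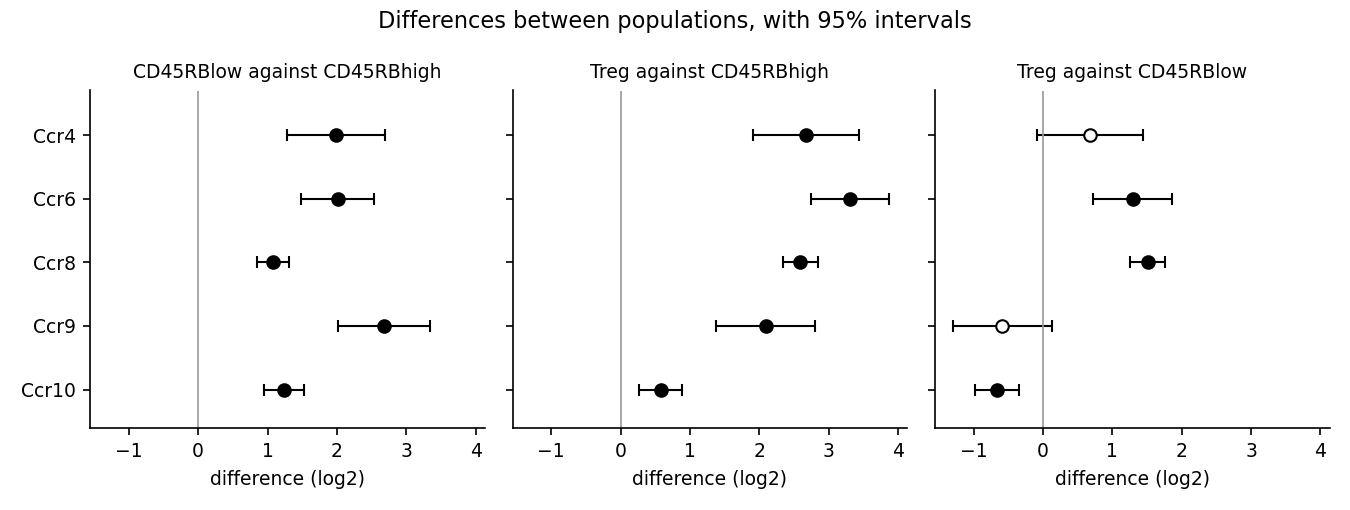
Log2 difference of each homing receptor (y axis, the brighter probe set for Ccr9) in each comparison (panels, x axis in log2 units), with points for the fitted difference, filled where the adjusted p is under 0.05, and bars for the 95% interval from limma. Every interval against CD45RBhigh cells lies above 0, and between Treg and CD45RBlow cells Ccr8 (1.51) and Ccr6 (1.30) lie above 0, Ccr10 (-0.66) below it, and the intervals of Ccr4 and Ccr9 cross it.

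The rise from CD45RBhigh to CD45RBlow cells, as a share of the rise from CD45RBhigh to Treg cells on the log2 scale, put the receptors in order. It was 41.8% for Ccr8, 60.9% for Ccr6, 74.4% for Ccr4, 128% for Ccr9 and 214% for Ccr10. Both rises share the CD45RBhigh arrays, so these shares describe the means only. Among all probe sets ranked by their difference, Ccr6, Ccr4, Ccr8 and Ccr9 held places 10, 15, 16 and 21 for Treg over CD45RBhigh cells, and Ccr10 place 88. For CD45RBlow over CD45RBhigh cells, Ccr9 came first of the 5 at place 6, followed by Ccr6 at 24, Ccr4 at 25, Ccr10 at 39 and Ccr8 at 46. Groups did not overlap in the upward direction at 12.5% of all probe sets in the first of these comparisons and at 8.51% in the second, and at all 5 receptors in both. In Treg over CD45RBlow cells, Ccr8 and Ccr6 were at places 12 and 14. Groups there did not overlap upward at 12.5% of all probe sets, Ccr6 and Ccr8 among them, and downward at 8.83%, Ccr10 among them.

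**Figure D3:**
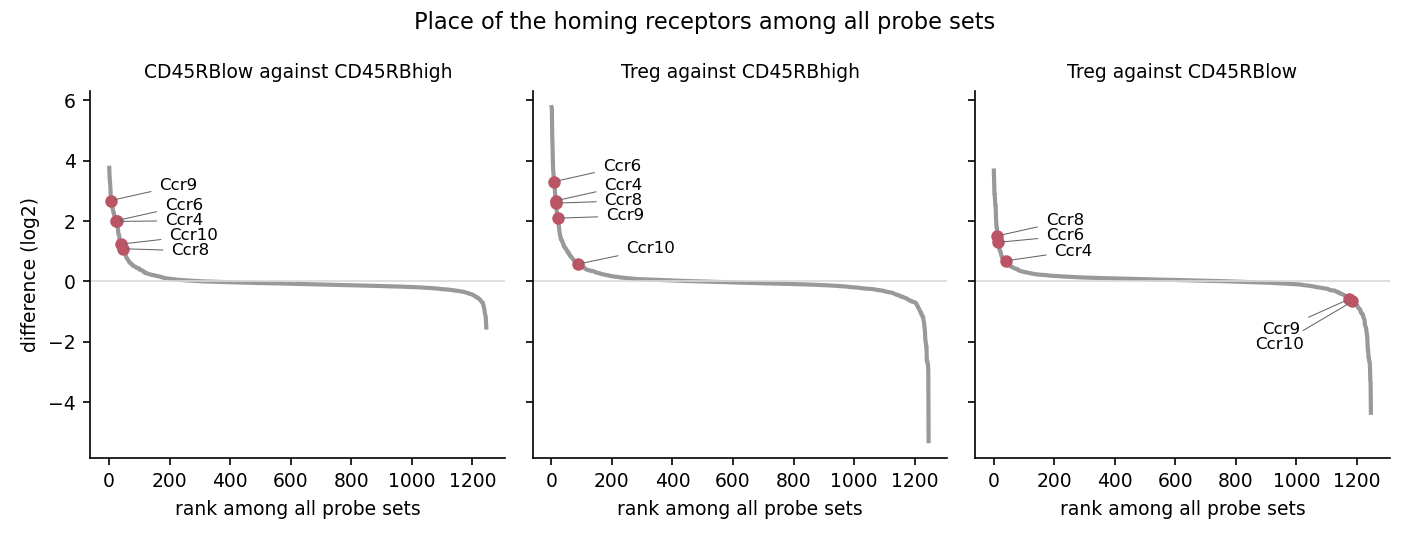
Log2 difference (y axis) of all 1246 probe sets in order of size (x axis, rank) in the 3 comparisons, with the homing receptors as points. The 5 receptors lie among the probe sets that rose most against CD45RBhigh cells, from place 6 (Ccr9) to 46 (Ccr8) for CD45RBlow and from 10 (Ccr6) to 88 (Ccr10) for Treg cells, and lie on both sides of 0 between Treg and CD45RBlow cells.

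The receptors also differed in how far they moved with the replicate set within a population. With population in the model, replicates 1 and 2 exceeded replicates 3 and 4 by 0.72 for Ccr9 (0.42 to 1.02, limma adjusted p = 0.00344), 0.67 for Ccr4 (0.27 to 1.07, adjusted p = 0.0243) and 0.51 for Ccr6 (0.22 to 0.80, adjusted p = 0.0189). The share of all probe sets that differed is the 20.6% given above. Ccr8 and Ccr10 did not pass, at 0.04 and 0.21 (adjusted p = 0.794 and 0.165). For Ccr4 the difference between CD45RBlow and CD45RBhigh cells was 2.23 and 2.80 in replicates 1 and 2 and 1.29 and 1.63 in replicates 3 and 4. For Ccr9 it was 2.58, 2.98, 2.71 and 2.46 in replicates 1 to 4.

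The regions just before the receptor genes are shown because the 5 transcripts moved together against CD45RBhigh cells. Sequences are RefSeq promoters on GRCm38.p6, from 250 bases before to 50 bases after the annotated start, written 5′ to 3′ on the strand of the gene, and 4 of the 5 genes matched an entry. Ccr4 lies on the minus strand at chr9:114496495-114496794. Ccr6 lies on the plus strand and is shown for the start at chr17:8235793-8236092. Ccr8 and Ccr9 lie on the plus strand at chr9:120091883-120092182 and chr9:123766961-123767260. Capitals mark matches to the motifs searched.
Ccr4: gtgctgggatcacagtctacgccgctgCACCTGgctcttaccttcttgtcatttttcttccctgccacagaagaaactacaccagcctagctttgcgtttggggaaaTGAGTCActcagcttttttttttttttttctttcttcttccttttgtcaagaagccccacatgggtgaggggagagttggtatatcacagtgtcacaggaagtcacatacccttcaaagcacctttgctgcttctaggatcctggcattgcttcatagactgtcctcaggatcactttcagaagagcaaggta
Ccr6: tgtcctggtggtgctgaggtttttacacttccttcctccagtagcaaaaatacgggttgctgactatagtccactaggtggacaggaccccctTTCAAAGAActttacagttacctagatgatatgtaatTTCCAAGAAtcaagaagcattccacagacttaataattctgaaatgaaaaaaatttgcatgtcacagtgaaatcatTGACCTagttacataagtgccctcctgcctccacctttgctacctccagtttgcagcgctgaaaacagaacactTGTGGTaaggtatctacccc
Ccr8: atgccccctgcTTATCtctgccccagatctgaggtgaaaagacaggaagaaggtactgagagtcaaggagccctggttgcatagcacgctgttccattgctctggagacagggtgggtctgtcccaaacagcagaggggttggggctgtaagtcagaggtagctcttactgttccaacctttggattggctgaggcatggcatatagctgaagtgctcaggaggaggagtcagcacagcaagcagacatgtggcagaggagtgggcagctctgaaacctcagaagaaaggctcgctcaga
Ccr9: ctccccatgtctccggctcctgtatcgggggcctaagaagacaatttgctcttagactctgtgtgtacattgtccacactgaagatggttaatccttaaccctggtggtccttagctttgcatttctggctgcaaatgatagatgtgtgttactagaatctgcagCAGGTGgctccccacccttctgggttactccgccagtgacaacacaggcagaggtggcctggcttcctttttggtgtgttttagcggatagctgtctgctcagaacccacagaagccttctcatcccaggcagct

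Motifs were searched on both strands as exact letters: GATA (GATAA), AP-1 (TGANTCA), forkhead (TGTTTAC), RUNX (TGTGGT), STAT (TTCNNNGAA), a nuclear receptor half-site (AGGTCA), the NFAT core (GGAAAA), the TATA box (TATAAA) and the E-box (CACCTG). The Ccr4 promoter held an E-box match that began 223 bases before the start and an AP-1 match, TGAGTCA, at 143 bases. That of Ccr6 held 2 STAT matches, TTCAAAGAA at 157 bases and TTCCAAGAA at 120 bases before the start, a half-site at 44 bases before it and a RUNX match just after it. Ccr8 held a GATA match at 239 bases and Ccr9 an E-box match at 85 bases before the start. The other annotated start of Ccr6, at chr17:8242276-8242575, held only a GATA match, at 69 bases before it. No motif was matched at all 4 genes. Among 32817 mouse promoters of the same length, 8.29% held a STAT match, 7.81% an AP-1 match, 16.8% a RUNX match, 16.3% a half-site, 20.2% an E-box and 25.4% a GATA match, so the matches are common letters and a description only. GC content was 46.3% for Ccr4, 42.3% for the Ccr6 start shown, 54% for Ccr8 and 51.3% for Ccr9, against a median of 52.7%.

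The chip also measured 14 chemokine receptors outside the 5. Of these, 5 rose and 2 fell in Treg against CD45RBhigh cells (median difference 0.15), and 6 rose and 2 fell in CD45RBlow against CD45RBhigh cells (0.28). Between Treg and CD45RBlow cells 1 rose and 2 fell (-0.04), and blocking by replicate number made this 1 and 5. The shares of all probe sets given above for each comparison are the background for this and the following lists. For Treg against CD45RBlow cells they were 6.74% higher and 5.78% lower, and 19.7% in either direction with the block. Cxcr6, known from effector and tissue-resident T cells, read 7.79 to 7.86 in Treg, 10.95 to 11.37 in CD45RBlow and 7.13 to 7.90 in CD45RBhigh cells. It rose by 3.76 in CD45RBlow over CD45RBhigh cells (limma adjusted p = 2.89e-08) and was lower by a difference of -3.36 in Treg than in CD45RBlow cells (adjusted p = 1.12e-07). Cxcr3, a receptor of type 1 effector cells, differed by 3.47 and -1.54 in the same comparisons. The order of Ccr8, with all 3 populations apart and Treg cells highest, was also that of Ccr3, the eotaxin receptor, at 4.31, 3.74 and 3.25 in Treg, CD45RBlow and CD45RBhigh cells (adjusted p = 0.00244 for Treg over CD45RBlow cells). In replicates 3 and 4 alone Ccr3 did not pass there (adjusted p = 0.0829) or between the CD25- populations (adjusted p = 0.0783). The CD45RBhigh mean of Ccr3 was below 3.64, the first quartile of all values, and its CD45RBlow mean was just above it. Ccr2, which guides cells to inflamed tissue, followed the pattern of Ccr9, at 8.44, 8.89 and 5.54. It differed by -0.45 between Treg and CD45RBlow cells (limma adjusted p = 0.345), or -0.58 when blocked by replicate number (adjusted p = 0.0184).

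**Figure D4:**
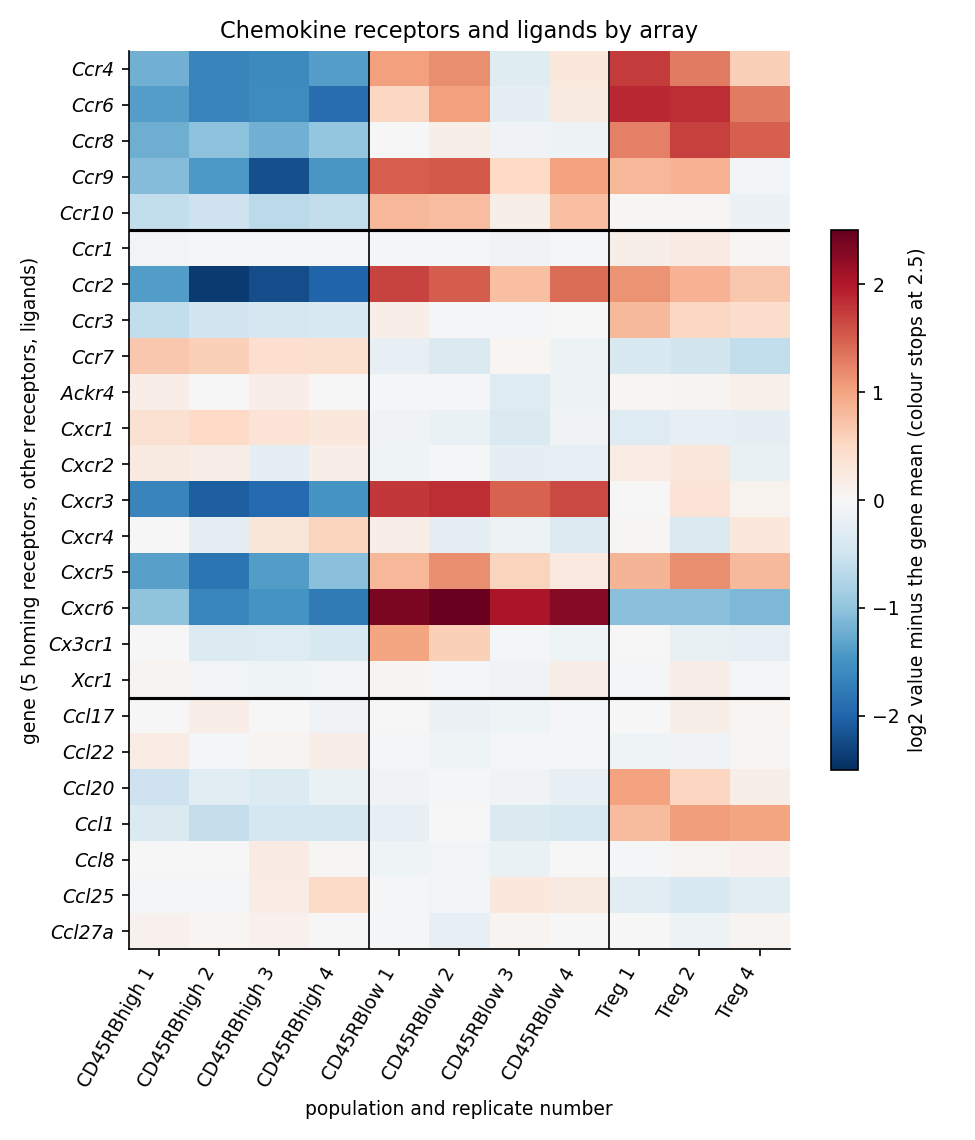
Levels of the 5 homing receptors, other measured chemokine receptors and the 7 measured ligands (rows, in 3 blocks) on each of the 11 arrays (columns, by population), in colour as log2 expression minus the gene's mean over the 11 arrays. The 5 homing receptors are low on all CD45RBhigh arrays, while the other receptors include genes that are high there (Ccr7) and genes with little change (Xcr1), and the ligands Ccl1 and Ccl20 are highest on Treg arrays.

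Ligands of the 5 receptors, mostly made by tissue cells, were measured in the T cells as well. Of 7 measured, 2 rose and 1 fell in Treg against CD45RBhigh cells, and 2 rose in Treg against CD45RBlow cells. Between CD45RBlow and CD45RBhigh cells limma called 0, with Ccl22 and Ccl1 at an unadjusted p under 0.05 and 0 called with the replicate block. Ccl1, the ligand of Ccr8, read 5.68 to 5.92 in Treg, 4.48 to 4.89 in CD45RBlow and 4.29 to 4.52 in CD45RBhigh cells. All Treg arrays thus lay above the others, while the CD25- populations overlapped. The difference was 1.40 over CD45RBhigh (limma adjusted p = 2.15e-06) and 1.18 over CD45RBlow cells (adjusted p = 1.75e-05), so receptor and ligand were both highest in Treg cells.

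Ccl20, the ligand of Ccr6, read 3.66 to 4.53 in Treg, 3.30 to 3.49 in CD45RBlow and 3.01 to 3.36 in CD45RBhigh cells. Its Treg arrays were spread but lay above the rest. It was higher in Treg than in CD45RBhigh cells by 0.88 (limma adjusted p = 0.00257) and than in CD45RBlow cells by 0.67 (adjusted p = 0.0194). The latter call was lost without Treg replicate 1 (0.45, adjusted p = 0.0512) or 2 (0.68, adjusted p = 0.0593). In replicates 3 and 4 alone neither call held (adjusted p = 0.164 and 0.316). Its means in both CD25- populations were below 3.64, the first quartile of all values, so these differences may be lower bounds. Ccl25, the ligand of Ccr9, was lower in Treg than in CD45RBhigh cells by a difference of -0.46 (adjusted p = 0.0323), a call that was lost without any of the 3 Treg arrays (adjusted p = 0.0763, 0.115 and 0.0638) and without CD45RBhigh replicate 3 (0.0704) or 4 (0.0519), and in replicates 3 and 4 alone (0.107). Against CD45RBlow cells Ccl25 differed by -0.41 (limma adjusted p = 0.074), and it passed with the replicate number as a fixed block (-0.37, adjusted p = 0.017) or a random block (-0.40, adjusted p = 0.0315). Ccl17 and Ccl22, the ligands of Ccr4, Ccl8, a ligand of Ccr8, and Ccl27a, a ligand of Ccr10, did not pass in any comparison.

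Adhesion receptors act after chemokine receptors in the entry of T cells into tissue. Of 9 measured, 4 rose and 0 fell in Treg against CD45RBhigh cells, 4 rose and 1 fell in CD45RBlow against CD45RBhigh cells, and 2 rose and 0 fell in Treg against CD45RBlow cells. With arrays quantile normalized again the counts were 4 and 3 in the second comparison and 3 and 0 in the last. Itgae, whose integrin holds T cells to E-cadherin on epithelium, read 9.15 to 10.04 in Treg, 6.61 to 7.77 in CD45RBlow and 5.04 to 5.36 in CD45RBhigh cells. Its 3 populations stood apart in the order of Ccr6 and Ccr8, with a difference of 2.52 between Treg and CD45RBlow cells (limma adjusted p = 8.27e-05). Icam1, an integrin ligand, rose by 1.04 in Treg and by 0.76 in CD45RBlow over CD45RBhigh cells. Selp, P-selectin, was higher in Treg than in CD45RBlow cells by 0.48 (adjusted p = 0.0049), a call lost in replicates 3 and 4 alone (0.64, adjusted p = 0.111).

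Of 11 genes of enzymes that build selectin ligands, 3 rose and 2 fell in Treg against CD45RBhigh cells. In CD45RBlow against CD45RBhigh cells 4 rose and 0 fell. Between Treg and CD45RBlow cells 1 rose and 1 fell (2 and 2 when blocked by replicate number). Fut7, the fucosyltransferase that completes these ligands, rose in all 3 steps, by 0.51 from CD45RBhigh to CD45RBlow (limma adjusted p = 0.00206), 0.44 from CD45RBlow to Treg (adjusted p = 0.00963) and 0.95 from CD45RBhigh to Treg cells (adjusted p = 2e-05). In replicates 3 and 4 alone these were 0.39, 0.39 and 0.78, and none passed (adjusted p = 0.238, 0.313 and 0.077). Chst2, a sulfotransferase, rose by 2.26 in Treg and 2.17 in CD45RBlow over CD45RBhigh cells and differed by 0.08 between them (adjusted p = 0.898). Gcnt1, which branches O-glycans, rose by 1.35 and 1.10, and its CD45RBhigh mean of 2.78 was below the first quartile of all values. The sialyltransferase St3gal6 was lower in Treg than in CD45RBlow cells, at -3.27 (adjusted p = 8.16e-08), and than in CD45RBhigh cells, at -2.64 (adjusted p = 1.14e-07). It rose by 0.63 in CD45RBlow over CD45RBhigh cells (adjusted p = 0.00508, or 0.151 in replicates 3 and 4 alone). Of the list of chemokine signalling genes 2 of 12 were measured, Tpst1 and Tpst2, which sulfate tyrosines of chemokine receptors. Tpst1 was higher by 0.40 (adjusted p = 0.0255) and Tpst2 lower by a difference of -0.43 (adjusted p = 0.0362) in Treg than in CD45RBlow cells, and both calls were lost without Treg replicate 1 (adjusted p = 0.109 and 0.142) and without several other arrays, and in replicates 3 and 4 alone (adjusted p = 0.382 and 0.304).

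Some of the helper cytokines known from T cells that carry these receptors differed between Treg and CD45RBlow cells. Of 10 measured, 7 rose and 0 fell in CD45RBlow against CD45RBhigh cells and 2 rose and 0 fell in Treg against CD45RBhigh cells. Between Treg and CD45RBlow cells 2 rose and 3 fell (2 and 5 when blocked by replicate number). Il10, an immunosuppressive cytokine, was higher in Treg than in CD45RBlow cells by 2.52 (limma adjusted p = 5.28e-05), as was Areg, a growth factor of tissue repair, by 1.77 (adjusted p = 0.00643). Il4 and Ifng, of type 2 and type 1 helper cells, differed by -2.65 (adjusted p = 1.75e-05) and -2.52 (adjusted p = 0.000485) in that comparison. In Treg against CD45RBhigh cells they did not pass, at -0.11 and 0.67 (adjusted p = 0.811 and 0.24).

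Markers of cell types the sort could hold were measured as follows. The 4 measured regulatory T cell markers, Il2ra, Klrg1, Itgae and Il10, rose in Treg over CD45RBlow and in CD45RBlow over CD45RBhigh cells, the last without Il10 in replicates 3 and 4 alone (adjusted p = 0.0827). All 6 markers of activated or memory T cells rose in CD45RBlow over CD45RBhigh cells, and 5 were lower in Treg than in CD45RBlow cells. Of the naive T cell markers, Ccr7 and Il7r were lower in CD45RBlow than in CD45RBhigh cells, calls lost in replicates 3 and 4 alone (adjusted p = 0.0827 and 0.0752). Of 8 B cell markers 3 were measured, with log2 values that summed to 17.7 to 18.0 in Treg, 16.9 to 17.6 in CD45RBlow and 16.8 to 17.3 in CD45RBhigh cells. Cd72 was higher in Treg cells than in both others, at 8.24 against 7.39 and 7.70 (the call over CD45RBhigh cells was lost without Treg replicate 1, adjusted p = 0.0815, and in replicates 3 and 4 alone, adjusted p = 0.07). Cd22 was highest in CD45RBlow cells, at 6.35, 6.64 and 6.06 in Treg, CD45RBlow and CD45RBhigh cells. It was lower in Treg than in CD45RBlow cells (-0.30, limma adjusted p = 0.0235) and higher in CD45RBlow (0.59, adjusted p = 0.00015) and Treg cells (0.29, adjusted p = 0.0181) than in CD45RBhigh cells. In replicates 3 and 4 alone none of these passed (adjusted p = 0.413, 0.0934 and 0.361). Both Cd22 calls of Treg cells were lost with arrays quantile normalized again (limma adjusted p = 0.0582 against CD45RBlow and 0.184 against CD45RBhigh cells). The former was also lost without Treg replicate 1, 2 or 4 (adjusted p = 0.0514, 0.0892 and 0.0614). The latter was also lost without Treg replicate 1 (adjusted p = 0.0734). Fcer2a read 3.23 to 3.35 on average in each population. The 4 measured myeloid markers of 10 had 0 calls in all comparisons, with differences from -0.10 to 0.10, and summed to 15.03 to 15.76 over all arrays. Of the plasma cell markers, Sdc1 read 4.60 to 4.65 on average in each population, and Prdm1 rose with Treg cells (7.80, 7.03 and 6.22 in Treg, CD45RBlow and CD45RBhigh cells). In replicates 3 and 4 alone Prdm1 did not pass between Treg and CD45RBlow (adjusted p = 0.064) or between the CD25- populations (adjusted p = 0.0599). Siglech, of plasmacytoid dendritic cells, read 3.18, 3.01 and 3.54 in the same order, and its call between the CD25- populations (adjusted p = 0.0414) was lost without most single arrays. Cd2, found on all T cells, read 12.3, 11.9 and 11.8, and its calls in Treg cells were lost in replicates 3 and 4 alone (adjusted p = 0.135 and 0.15). Of 8 natural killer and CD8 T cell markers 3 were measured. Klrd1 read 3.93 in Treg, 8.28 in CD45RBlow and 9.22 in CD45RBhigh cells, opposite in order to Ccr8, Ccr6 and Ccr4. Klra9 read 4.72, 6.53 and 6.75 in the same order, and Klra3 2.61, 2.98 and 3.05, all below the first quartile of all values. Between the CD25- populations only Klrd1 was called, and that call was lost in replicates 1 and 2 alone (-0.84, limma adjusted p = 0.0687). The part of B cells, which can carry Ccr6, in the level of Ccr6 was not tested.

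The genes whose profiles over the 11 arrays were most like each receptor were named by the root mean square difference of log2 values centred on the gene's own mean. For Ccr4 they were Chst2 (0.35), Ccr6 (0.35) and Angptl2 (0.37), and for Ccr6 they were Ccr4 (0.35), the interleukin-2 receptor chain Il2rb (0.36) and the interleukin-33 receptor Il1rl1 (0.40). Ccr4 and Ccr6 were thus each among the 3 nearest of the other. For Ccr8 they were Cd74, a chaperone of class II molecules (0.29), Igf1r (0.43) and the transcription factor gene Prdm1 (0.45). For Ccr9 they included Chst2 (0.41) and the inflammatory receptor Ccr2 (0.45). For Ccr10 they were Il1r1 (0.21), Il18rap (0.23), both chains of interleukin receptors, and the galectin Lgals3 (0.24). All of these genes differ between the same populations on the same arrays, so the likeness is a description with no test.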

How the data were processed

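RNA of the 11 sorted samples was labelled with biotin and hybridised to a custom glycan gene array, 1 array per sample. The table the authors deposited gives a log2 expression value for each probe set. Per the submitters' processing notes and the series text it comes from RMA, a method of background correction, quantile normalization and probe summary, whose version is not given in the sources used here. Values ran from 1.99 to 14.2, and no further normalization or filter was applied. RNA extraction is given as Trizol in the labels but as RNeasy in the series text.

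RefSeq identifiers gave symbols for 962 of 1246 probe sets (908 genes) through a RefSeq table on GRCm38.p6, used for names only. Where a gene had several probe sets, the brightest was taken. All arrays and probe sets entered a limma fit with a mean for each population, by limma 3.58.1 in R 4.3.3 (prior degrees of freedom 2.87, residual 8), with two-sided tests. P-values were adjusted by Benjamini-Hochberg in each comparison over 1246 probe sets, with a threshold of 0.05, and intervals are at 95%. The script was tested on simulated data. The members, gene lists, marker lists and tests were chosen with earlier results of these data known.

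Genes named are the 5 receptors, all measured ligands, up to 4 genes per list by smallest adjusted p among those past the threshold in a comparison, 3 nearest profiles per receptor, and genes that check the sort (Il2ra, Cd44 and Ccr7). Some genes that this rule names are not reported here. Fcer2a, Sdc1 and Xcr1, which fall outside this rule, were named after their values were seen. Immature thymic markers were in 0 of 3 cases measured.

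Replicate numbers in the labels were checked for pairing. Deviations from the population means correlated at 0.31 to 0.56 in all 10 pairs of arrays with the same number (median 0.46), and at a median of -0.31 (highest 0.58) in 30 pairs with other numbers, so part of the pairing goes with the replicate set. Alternatives were this number as a fixed or random block, only the arrays compared, median centring, quantile normalization again, other moderation, a filter on dim probe sets, 1 probe set per gene, no probe sets with the suffix s or x, each replicate set alone or as a term, leaving out each array, and the other Ccr9 probe set. Figures were drawn with matplotlib 3.10.9 in Python 3.11.15 with pandas 2.3.3.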

Additional observations from a re-analysis of the deposited data

Results flagged for a closer look

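The value of Ccr10 in CD45RBlow replicate 3, 5.74, lay far below the other 3 CD45RBlow arrays. Its gap to the nearest of them was 0.885 of the range of the group. It was 1 of 12 groups of 4 arrays checked, and chance marks about 1 group in 20. On the same array Ccr4, Ccr6 and Ccr9 also had the lowest value of their population, at 5.15, 7.62 and 8.40. Without this array Ccr10 differed by 1.40 between CD45RBlow and CD45RBhigh cells (limma adjusted p = 7.09e-07) and by -0.82 between Treg and CD45RBlow cells (adjusted p = 3.63e-05), larger than the 1.24 and -0.66 with it.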

How the results depend on the processing

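No receptor changed direction under any alternative. Of the receptor differences recomputed under the alternatives, 335 stayed on their side of the threshold, 7 lost their call and 3 gained one, and the cause was not tested. With the replicate number as a block the only change among the receptors was the call of Ccr9 between Treg and CD45RBlow cells (-0.80), which also passed with the replicate set as a term (-0.70) and in replicates 1 and 2 only (-0.65). The block raised the probe sets past the threshold to 245 for Treg against CD45RBlow and 271 for CD45RBlow against CD45RBhigh cells, from 156 and 157, and the replicate set as a term to 238 and 247. Replicates 3 and 4 only, with fewer samples and 1 Treg array assumed to vary like the other populations, gave 88 probe sets and 3 receptors for Treg against CD45RBhigh, 49 and 1 for Treg against CD45RBlow, and 63 probe sets for CD45RBlow against CD45RBhigh cells. Calls lost there were Ccr9 (1.76) and Ccr10 (0.49) in Treg against CD45RBhigh, Ccr6 (1.31) and Ccr10 (-0.61) in Treg against CD45RBlow, and Ccr10 (1.10) in CD45RBlow against CD45RBhigh cells. Leaving out each array in turn gave 164 to 227, 110 to 162 and 113 to 151 probe sets in the comparisons of Treg with CD45RBhigh, Treg with CD45RBlow and CD45RBlow with CD45RBhigh cells. The receptors called were then 4 to 5, 3 and 5, and Ccr10 in Treg against CD45RBhigh cells ranged from 0.55 to 0.64, losing its call without Treg replicate 1 or 2. Adjusted p over the alternatives ran from 0.000122 to 0.385 for that difference and from 0.0014 to 0.724 for Ccr9 between Treg and CD45RBlow cells. Other scalings moved the median of all probe sets by less than 0.1. Without probe sets of suffix s or x, Ccr6 had no value and Ccr9 was read from its other probe set.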
